A study of Mus musculus with 18 samples.

Results

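The genes described here are those whose transcripts were lowered by both LPS and PIC in RAW264.7 cells, an established macrophage line from a mouse tumour. They were taken from the gene counts, among protein-coding genes with a mean of at least 50 counts over the 18 libraries. A gene was kept when its mean CPM (counts scaled to the library total) with LPS and with PIC was at most 0.5 times that of the control, and when its highest CPM with either stimulus lay below its lowest control CPM. Symbols beginning with Slc, Zfp or Trim were left out. This gave 241 genes of the 9320 that met the criteria on type, count and symbol, in a table of 56748 genes. Their levels relative to control chose them, so these falls are given as a description with no test. Gene positions below are those of the authors' table, whose build is not settled by the notes and is not that of the promoter positions.

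RNA selected by its poly(A) tail was sequenced as strand-specific libraries, 3 for each of 6 conditions. All of these libraries carry the label WT in the authors' table. Control cells had no treatment, TBHQ cells had 5 µM *tert*-butylhydroquinone for 4 h and were harvested at the end of it, LPS cells had 0.1 µg/mL lipopolysaccharide for 12 h, and PIC cells had 20 µg/mL polyinosinic:polycytidylic acid for 12 h. In LPS + TBHQ and PIC + TBHQ the TBHQ treatment of 4 h came before the stimulus of 12 h. TBHQ came from a stock in DMSO, and the control had medium alone for 12 h by the study's timeline. TBHQ alone therefore differs from control in time as well as in treatment. Whether the stimuli were added at the same time with and without TBHQ is not stated, so those comparisons may also differ by 4 h of culture, and by DMSO, which cannot be told apart from TBHQ here. The 3 libraries of a condition are described as biological replicates of this cell line, so p-values measure the spread between such replicates.

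LPS is sensed by the receptor TLR4, and PIC, a mimic of viral RNA, by TLR3 and by RNA sensors of the cytosol. Genes of mitosis are switched on late in the cell cycle by complexes that contain MYBL2 and FOXM1, which act at promoters rich in CCAAT boxes, and they are silent in cells that leave the cycle. TBHQ is a phenolic antioxidant used in food that activates the transcription factor Nrf2.

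The libraries held 14423390 to 18851626 counts, with a median of 15742337.5, and the lowest count of any of the 241 genes in a library was 8. The identity of the cells was checked on the deposited FPKM (fragments scaled to gene length and library total), which compare genes per length. The 10 macrophage markers summed to 6360 FPKM in the control and 5836 with TBHQ, to 5907 in LPS and 6600 in LPS + TBHQ, and to 6133 in PIC and 6515 in PIC + TBHQ. These sums hold markers whose means lay on opposite sides of the control, untested here, such as *Lyz2*, the lysozyme of myeloid cells, at 4531 FPKM in the control, 3688 in LPS and 3464 in PIC, and *Cd14*, a co-receptor for LPS, at 809.7, 1260 and 1658. *Lyz2* was the most abundant of them, and *Mertk*, a receptor of mature tissue macrophages, was near 0 at 0.00973 FPKM. Markers of T cells, B cells, epithelium, fibroblasts and endothelium summed, for each type, to at most 0.244 FPKM in any condition, and *Cd3e*, *Cd8a*, *Krt8*, *Krt18* and *Col1a2* were at 0 in all 18 libraries.

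The 241 genes lay 2.47-fold below control with LPS in the median, over a range of 2.00 to 9.50, and 3.73-fold below it with PIC, over a range of 2.12 to 18.4. PIC gave the lower mean for 233 of the 241. On the same CPM the median gene of 10451 also lay lower with PIC than with LPS, by a log2 ratio of -0.13. Together the 241 took 1.61% to 1.62% of all counts in the control libraries, 0.566% to 0.611% with LPS and 0.426% to 0.459% with PIC. That share was 0.756% to 0.770% with LPS + TBHQ and 0.541% to 0.567% with PIC + TBHQ, so each TBHQ condition lay between its stimulus and the control, with no library overlapping. Fewer cells of a type and less RNA per cell cannot be told apart in these bulk libraries. On CPM of the library total the median gene of 10451 was also shifted relative to control. Its log2 ratio was -0.11 for LPS and -0.24 for PIC. All tests below use TMM scaling instead. On TMM-scaled CPM 195 of the 241 would be selected. In the TMM-scaled fit 223 of the 241 had a log2FC below 0 for PIC against LPS. Just inside the limit of 0.5 lay *Fancb*, a Fanconi anaemia DNA repair gene, at 49.91% of control in the less lowered condition, and *Metrn* and *Cep68* at 49.92% each. Among the genes named, *Fancb*, *Metrn*, *Cep68*, *Ephx1*, *Rgs18*, *Rad51b*, *Fanci* and *mt-Co2* would miss the selection on leaving out 1 control or LPS library. Just outside the limit lay *Hfe* at 50.41%, *Pros1* at 50.48% and *Rfc5*, a clamp loader subunit, at 50.5%. Of 244 eligible genes with an LPS mean at most 0.5 times control, 241 were also that low with PIC, whereas 497 of the 738 that low with PIC were not that low with LPS.

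Most of these transcripts were higher, by a small part of their fall, where TBHQ preceded the stimulus. In edgeR's quasi-likelihood test with a Benjamini-Hochberg FDR below 0.05, 157 of the 241 were higher in LPS + TBHQ than in LPS, against 11.7% of all 13691 genes tested, and 3 were lower, against 12.2%. In PIC + TBHQ against PIC, 138 were higher, against 15.8% of all genes, and 7 were lower, against 15.5%. Higher in both comparisons were 121, against 8.04% of all genes, and lower in both was 1, *Psrc1*, against 8.82%. These tests share the LPS and PIC libraries with the selection, which favours genes measured low there. The median log2FC of the 241 was 0.37 within LPS and 0.32 within PIC, beside 0.0023 and 0.0089 over all genes tested. When TMM was replaced by total library size, the share of all calls that were higher moved from 48.9% to 59.5% within LPS and from 50.6% to 70.3% within PIC, and the counts for the 241 became 161 higher and 2 lower within LPS and 157 higher and 4 lower within PIC. Without PIC + TBHQ library 2 the lower calls within PIC numbered 4. All 3 LPS + TBHQ libraries lay above all 3 LPS libraries for 183 of the 241, against 21.2% of all genes, and the PIC + TBHQ libraries lay above the PIC libraries for 160, against 30.9%.

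TBHQ left nearly all of the 241 below control. Each condition was harvested once, so a smaller fall and a later recovery cannot be told apart. The regained share, meaning the TBHQ difference in mean CPM as a percent of the fall from control, had a median of 16.9% with LPS (-40.1% to 110.3%) and 9.44% with PIC (-14.9% to 107%). It was above 0 for 227 genes with LPS and 219 with PIC. When the genes were chosen without the libraries of a replicate number and the share was read in those libraries alone, the median lay between 15.8% and 18.3% with LPS and between 9.06% and 10.1% with PIC. In percent of control, the median gene stood at 40.5% with LPS and 49.5% with LPS + TBHQ, and at 26.8% with PIC and 33.5% with PIC + TBHQ. For 237 of the 241, all LPS + TBHQ libraries remained below all control libraries, against 34.1% of all genes, and for 239 all PIC + TBHQ libraries did, against 43.3%. *Susd3*, *Myh14*, *Cebpa* and *Ephx1* were the exceptions with LPS, and *Myh14* and *Ephx1* with PIC. At least 50% of the fall was regained by 7 genes with LPS, the 4 just named and *Calhm2* (57.6%), *2900026A02Rik* (54.0%) and *Gas6* (53.8%), and by 3 with PIC, of which *Susd3* regained 52.7%. *Calhm2* and *2900026A02Rik* are named because of these values. Across the 241 genes the log2FC with TBHQ within LPS and within PIC had a Pearson r of 0.718 and a Spearman correlation of 0.657, and across all genes 0.589 and 0.557; genes are not independent replicates.

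**Figure D1:**
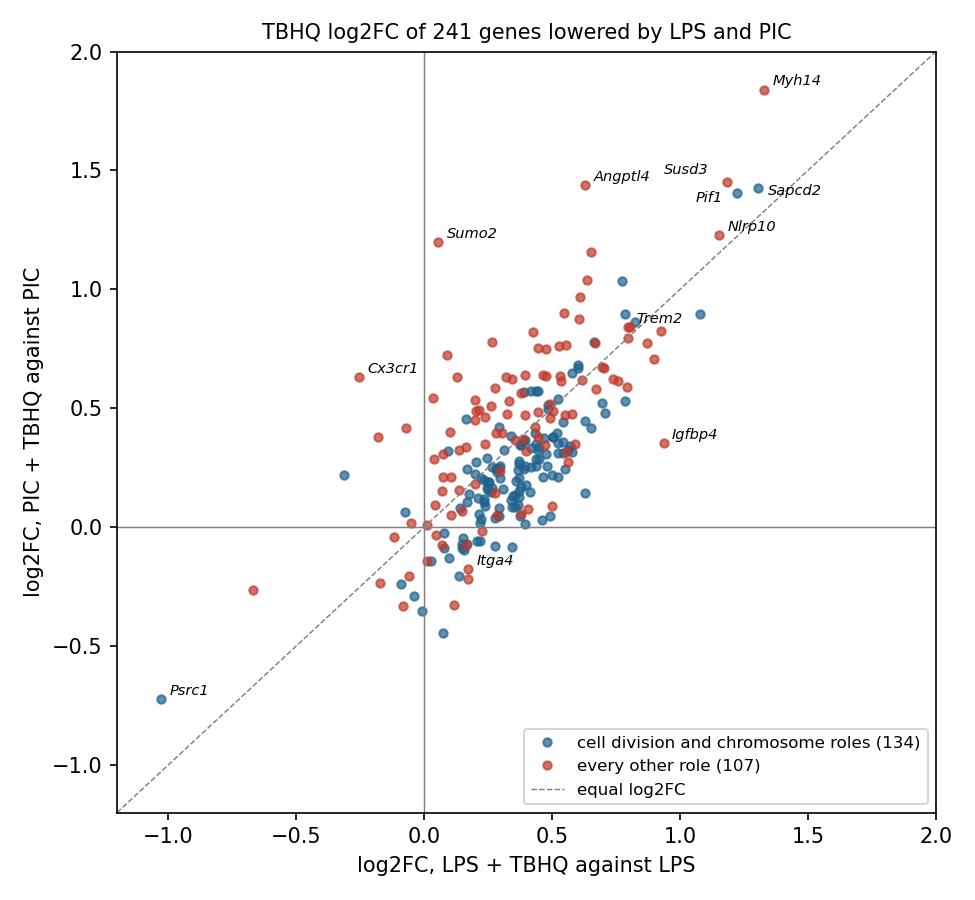
Each point is 1 of the 241 genes, with its log2FC for LPS + TBHQ against LPS on the x axis and for PIC + TBHQ against PIC on the y axis. The 134 genes with roles in division and chromosomes are blue, the 107 others are red, the dashed line marks equal values, and most points of either colour lie above 0 on both axes.

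Each gene was assigned 1 role by known function, which placed 134 of the 241 in cell division or on chromosomes. The other 107 had other roles or none assigned. *Foxm1*, a factor that drives mitotic genes, was counted among the 107 as a transcription factor, so the split does not separate all genes linked to division. The largest groups of the 134 were spindle, kinetochore and centrosome proteins (55), cyclins, mitotic kinases, phosphatases and ubiquitin ligases (32), and chromosome structure, replication and repair proteins (20), followed by histones, chromatin and nuclear envelope (14) and cytokinesis (13). Roles were assigned after the values had been seen, so they are described by counts and medians. Among the 134, 101 were higher and 1 lower within LPS, and 71 higher and 5 lower within PIC, with a median regained share of 16.6% and 7.86%. Among the 107, 56 were higher and 2 lower within LPS, and 67 higher and 2 lower within PIC, with a median of 17.96% and 16.9%. Over all genes tested, 11.7% were higher and 12.2% lower within LPS, and 15.8% and 15.5% within PIC. The medians of the 2 sets were thus close with LPS and apart with PIC, a difference that was not tested. Surface receptors, adhesion and secreted proteins (20) had median shares of 30.1% with LPS and 20.1% with PIC, and lipid and xenobiotic metabolism (11) had 28.7% and 21.8%. Genes with other roles or none assigned (35) had 22.5% and 21.4%. The remaining groups were signalling proteins (16; 14.8% and 14.5%), other metabolic enzymes and proteases (10; 8.38% and 6.46%), transcription factors (8; 15.4% and 10.4%), glycan synthesis (5; 14.2% and 13.97%) and mitochondrially encoded genes (2; -1.67% and -0.657%).

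**Figure D2:**
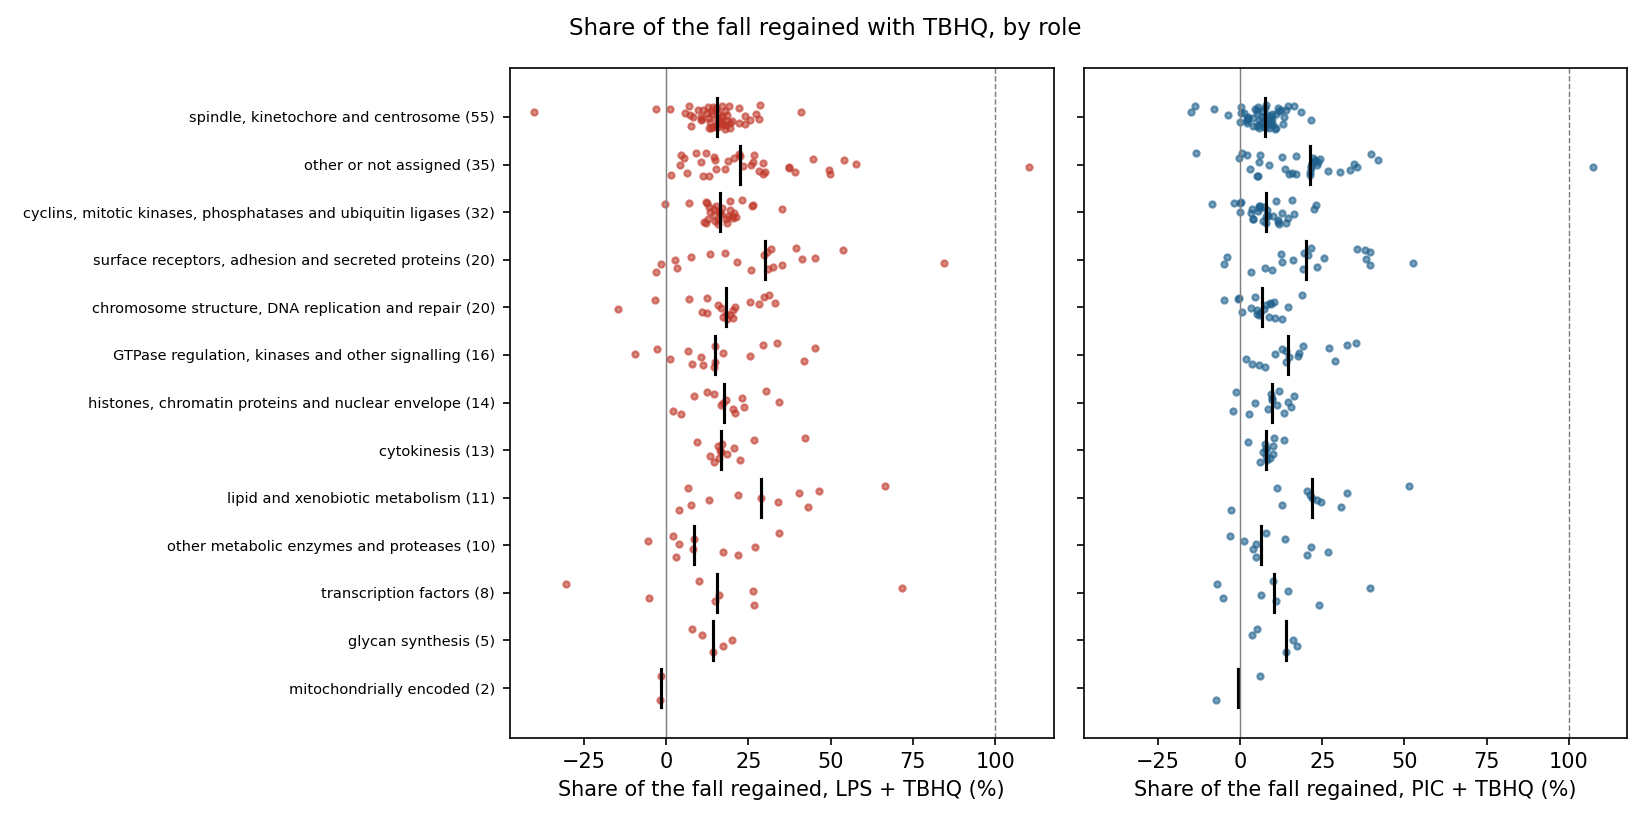
The share of the fall from control regained with TBHQ is on the x axis in percent, within LPS on the left and within PIC on the right, for each role on the y axis. Dots are genes, black bars are medians and the dashed line marks the control level at 100%, which only *Myh14* passes.

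Regulators of mitotic entry and exit were among the most lowered. *Plk1* (ENSMUSG00000030867, chr7:121758662-121769096, plus strand), the polo-like kinase that drives entry into mitosis, measured 103, 97.3 and 96.0 CPM in the control libraries and 16.3, 16.9 and 18.1 with LPS. With LPS + TBHQ it measured 28.9, 31.5 and 29.7, with PIC 10.8, 11.1 and 10.8 and with PIC + TBHQ 21.7, 20.3 and 21.6. Every TBHQ library lay above every library of its stimulus and far below every control library. The rise was of similar size within LPS (log2FC 0.79 ± 0.058, edgeR FDR 5.59e-11) and within PIC (log2FC 0.89 ± 0.038, edgeR FDR 2.87e-11), each in 3 of 3 libraries, where ± is the SE. *Cdc20* (ENSMUSG00000006398, chr4:118290098-118294549, minus strand), the activator of the anaphase-promoting complex, gave 118, 121 and 118 CPM in control, 21.6, 24.0 and 21.2 with LPS and 41.7, 36.2 and 42.3 with LPS + TBHQ. It gave 16.3, 16.4 and 15.1 with PIC and 29.5, 30.5 and 30.9 with PIC + TBHQ. The order of the 5 conditions was that of *Plk1*, without overlap. *Cdc20* rose in 3 of 3 libraries within LPS (log2FC 0.82 ± 0.091, edgeR FDR 2.06e-12) and in 3 of 3 within PIC (log2FC 0.86 ± 0.044, edgeR FDR 4.03e-12), regaining 18.4% and 13.9% of its fall. *Ccnb1* (ENSMUSG00000041431, chr13:100915158-100923078, minus strand), the cyclin partner of Cdk1, stood at 184, 178 and 178 CPM in control, 41.2, 48.9 and 45.6 with LPS, against 63.0, 68.5 and 67.1 in LPS + TBHQ. Its PIC libraries gave 29.7, 31.2 and 35.5 and those of PIC + TBHQ 51.3, 48.1 and 48.2. The libraries with and without TBHQ were apart in each stimulus, and it rose by nearly the same log2FC within LPS (log2FC 0.52 ± 0.079, edgeR FDR 5.56e-09) and PIC (log2FC 0.54 ± 0.083, edgeR FDR 9.15e-09).

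*Aurka* and *Aurkb*, the Aurora kinases of the spindle pole and of the chromosomal passenger complex, also rose in 3 of 3 libraries of each stimulus. For *Aurka* the values were log2FC 0.50 ± 0.071, edgeR FDR 2.38e-08 within LPS and log2FC 0.38 ± 0.051, edgeR FDR 1.49e-05 within PIC. For *Aurkb* they were log2FC 0.31 ± 0.10, edgeR FDR 0.00182 and log2FC 0.32 ± 0.11, edgeR FDR 0.00324. *Cks1b*, a small protein that binds cyclin-dependent kinases, had a small fall, 2.07-fold with LPS and 2.57-fold with PIC, and at 89.8 FPKM was among the 5 most abundant in the control per length. It rose in 3 of 3 libraries within LPS (log2FC 0.29 ± 0.033, edgeR FDR 1.54e-05) and within PIC (log2FC 0.25 ± 0.048, edgeR FDR 1.75e-04). *Pttg1*, the securin that holds back sister chromatid separation, did not share this pattern. It measured 16.6, 18.99 and 17.6 CPM with LPS and 15.9, 18.7 and 18.02 with LPS + TBHQ, which overlap, and 17.5, 19.6 and 18.4 with PIC and 15.6, 14.3 and 17.6 with PIC + TBHQ, where 2 libraries lie below all PIC libraries. *Pttg1* fell within PIC (log2FC -0.29 ± 0.10, edgeR FDR 0.00775), a call that was lost without PIC + TBHQ library 2 (log2FC -0.23, FDR 0.0579).

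Among spindle and kinetochore genes the deepest fall was that of *Sapcd2*, a protein that orients the spindle. It measured 21.2, 23.8 and 18.7 CPM in control, 1.80, 2.01 and 2.90 with LPS and 0.791, 1.61 and 1.17 with PIC, a fall of 9.50-fold and 17.9-fold. After TBHQ it measured 5.35, 6.004 and 5.53 with LPS and 2.84, 2.75 and 4.44 with PIC. The TBHQ libraries lay above all those of their stimulus, and *Sapcd2* rose within LPS (log2FC 1.303 ± 0.20, edgeR FDR 3.96e-06) and within PIC (log2FC 1.42 ± 0.35, edgeR FDR 1.94e-05). *Aspm*, a spindle pole protein, lay at 77.3, 75.2 and 76.5 CPM in control, 9.91, 11.4 and 12.5 with LPS, against 20.5, 20.9 and 17.9 in LPS + TBHQ. For PIC it was 7.31, 7.03 and 8.43, and 11.6, 12.4 and 10.8 when TBHQ preceded it. Every TBHQ library was above every library of its stimulus, and the rise was log2FC 0.79 ± 0.12, edgeR FDR 7.43e-09 within LPS and log2FC 0.53 ± 0.096, edgeR FDR 7.75e-05 within PIC. *Cenpf*, of the outer kinetochore, rose in 3 of 3 libraries in each (log2FC 0.66 ± 0.12, edgeR FDR 4.19e-08 within LPS). Its value within PIC was log2FC 0.78 ± 0.085, edgeR FDR 2.63e-08. *Cenpa*, the histone H3 variant that marks centromeres, did likewise (log2FC 0.70 ± 0.13, edgeR FDR 2.12e-08 within LPS). Within PIC it gave log2FC 0.52 ± 0.088, edgeR FDR 1.58e-05. *Fam83d*, a spindle protein with low counts, rose within LPS (log2FC 1.08 ± 0.24, edgeR FDR 3.62e-04), while its rise within PIC (log2FC 0.90 ± 0.24, edgeR FDR 0.00647) was lost without PIC + TBHQ library 2 (log2FC 0.72, FDR 0.0556).

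*Psrc1* (ENSMUSG00000068744, chr3:108291155-108295547, plus strand), a microtubule-associated protein of the spindle, went the other way. It measured 22.3, 22.2 and 20.5 CPM in control, 9.50, 9.35 and 9.999 with LPS and 6.13, 5.68 and 7.16 with PIC. After TBHQ the values were 4.51, 5.16 and 4.73 with LPS and 4.63, 3.88 and 3.61 with PIC. Each TBHQ library lay below every library of its stimulus, and *Psrc1* fell in 3 of 3 libraries within LPS (log2FC -1.03 ± 0.062, edgeR FDR 4.16e-08) and in 3 of 3 within PIC (log2FC -0.72 ± 0.14, edgeR FDR 6.51e-05). In regained shares this is -40.1% and -14.9%, the lowest of the 241 in each stimulus. *Knl1*, the scaffold on which the kinetochore is built, rose within LPS (log2FC 0.49 ± 0.067, edgeR FDR 2.81e-06) with 22.1, 25.5 and 23.1 CPM against 32.7, 35.4 and 33.2. Within PIC it measured 15.4, 12.8 and 16.4 and, after TBHQ, 14.6, 16.2 and 17.7, which overlap (log2FC 0.048 ± 0.13, edgeR FDR 0.723).

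Of the 13 genes of cytokinesis, the splitting of the cell after mitosis, 12 rose within LPS, against 11.7% of all genes tested, and 11 within PIC, against 15.8%, with medians of 16.6% and 7.91% regained. *Prc1*, which bundles microtubules of the spindle midzone, measured 20.3, 19.6 and 18.5 CPM with LPS and 26.6, 28.3 and 27.6 with LPS + TBHQ, beside 76.8, 75.9 and 72.7 in control. *Anln*, a scaffold of the cleavage furrow, measured 24.8, 27.5 and 27.9 CPM with PIC and 38.1, 38.2 and 42.4 with PIC + TBHQ, beside 156, 153 and 152 in control. In both genes the libraries with and without TBHQ were apart. The rise of *Prc1* was log2FC 0.47 ± 0.046, edgeR FDR 1.36e-06 within LPS and log2FC 0.31 ± 0.063, edgeR FDR 0.00221 within PIC. *Anln* rose by log2FC 0.48 ± 0.072, edgeR FDR 1.33e-08 within LPS and log2FC 0.50 ± 0.074, edgeR FDR 6.77e-08 within PIC. *Ect2*, an exchange factor at the cleavage furrow, rose by log2FC 0.42 ± 0.062, edgeR FDR 2.41e-06 and log2FC 0.33 ± 0.064, edgeR FDR 2.94e-04, all 3 genes in 3 of 3 libraries of each stimulus.

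Of the genes that act on DNA, *Pif1*, a helicase, was the most lowered. It gave 34.0, 36.4 and 30.7 CPM in control, 3.26, 3.67 and 4.96 with LPS and 9.26, 10.2 and 8.84 when TBHQ preceded it. Under PIC the libraries gave 1.71, 2.39 and 2.55, against 6.35, 6.16 and 6.15 in PIC + TBHQ. No 2 conditions of these overlapped, and *Pif1* rose within LPS (log2FC 1.22 ± 0.19, edgeR FDR 8.93e-09) and PIC (log2FC 1.40 ± 0.17, edgeR FDR 1.21e-08). *Ankle1*, an endonuclease that resolves chromatin bridges, rose within LPS (log2FC 0.77 ± 0.12, edgeR FDR 9.63e-06) and PIC (log2FC 1.03 ± 0.21, edgeR FDR 5.70e-06), each in 3 of 3 libraries. *Mki67* (Ki-67), the coat protein of mitotic chromosomes used to mark dividing cells, was lowered from 607, 602 and 616 CPM in control to 162, 183 and 189 with LPS and 133, 117 and 132 with PIC. After TBHQ it measured 262, 265 and 255 with LPS and 151, 156 and 156 with PIC. All TBHQ libraries were above those of their stimulus, with a rise of log2FC 0.53 ± 0.069, edgeR FDR 8.25e-12 within LPS and log2FC 0.21 ± 0.058, edgeR FDR 4.63e-04 within PIC. *Tk1*, the thymidine kinase of S phase, rose within LPS (log2FC 0.37 ± 0.11, edgeR FDR 2.37e-05) and PIC (log2FC 0.26 ± 0.045, edgeR FDR 0.00475), in 3 of 3 libraries each. It was the only gene of the 47 on a DNA replication list among the 241. Of 45 DNA repair genes 4 were among them, *Rad51b*, *Fancb*, *Fanci* and *Neil3*. Within PIC these were at log2FC -0.089 ± 0.19, edgeR FDR 0.815 for *Rad51b*, log2FC 0.25 ± 0.076, edgeR FDR 0.302 for *Fancb*, log2FC 0.22 ± 0.19, edgeR FDR 0.192 for *Fanci* and log2FC -0.043 ± 0.19, edgeR FDR 0.847 for *Neil3*, which miss the threshold. Within LPS it was also missed by *Rad51b* (log2FC 0.077 ± 0.17, edgeR FDR 0.840), *Fanci* (log2FC 0.20 ± 0.065, edgeR FDR 0.194) and *Neil3* (log2FC 0.15 ± 0.083, edgeR FDR 0.367). *Fancb* was called higher within LPS (log2FC 0.39 ± 0.21, edgeR FDR 0.0436), which was lost without LPS library 1 (log2FC 0.25, FDR 0.270) or 2 (log2FC 0.36, FDR 0.119), LPS + TBHQ library 1 (log2FC 0.39, FDR 0.0811) or 3 (log2FC 0.27, FDR 0.244), in DESeq2 (FDR 0.0920) and in a fit of the compared conditions only (FDR 0.0755).

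Among the 14 histones, chromatin proteins and proteins of the nuclear envelope, 10 rose within LPS, against 11.7% of all genes tested, and 8 rose and 1 was lower within PIC, against 15.8% and 15.5%. *Hmgb2*, which bends DNA, measured 273, 285 and 276 CPM in control and 95.4, 108 and 106 with LPS, against 104, 107 and 110.5 with LPS + TBHQ. With PIC it measured 84.1, 84.0 and 85.1 and with PIC + TBHQ 75.8, 78.9 and 85.9. The groups with and without TBHQ overlap in both stimuli. *Hmgb2* had log2FC 0.027 ± 0.062, edgeR FDR 0.746 within LPS and was called lower within PIC (log2FC -0.14 ± 0.054, edgeR FDR 0.0239), which was lost with total library size (log2FC -0.074, FDR 0.256) and without PIC + TBHQ library 1 (log2FC -0.11, FDR 0.141) or 2 (log2FC -0.14, FDR 0.0673).

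Outside the division genes, 20 were receptors, adhesion or secreted proteins, of which 13 were higher with TBHQ within LPS, against 11.7% of all genes tested, and 16 higher and 1 lower within PIC, against 15.8% and 15.5%. *Trem2* (ENSMUSG00000023992, chr17:48653429-48661175, plus strand), a lipid-sensing receptor of tissue macrophages and microglia, measured 271, 293 and 266 CPM in control, 79.9, 78.5 and 88.4 with LPS and 144, 143 and 149 with LPS + TBHQ. It measured 56.2, 57.0 and 60.8 with PIC and 106, 113 and 109 with PIC + TBHQ. The 5 conditions formed 5 separate levels, and *Trem2* rose within LPS (log2FC 0.80 ± 0.060, edgeR FDR 1.06e-15) and PIC (log2FC 0.84 ± 0.042, edgeR FDR 7.04e-16), regaining 32.5% and 23.5%. *Susd3* (ENSMUSG00000021384, chr13:49384166-49402182, minus strand), a membrane protein with a sushi domain, had 21.0, 22.6 and 22.6 CPM in control, 9.50, 9.21 and 7.24 with LPS, against 18.3, 21.6 and 20.02 in LPS + TBHQ. Its PIC libraries gave 4.81, 4.32 and 5.30 and those of PIC + TBHQ 13.3, 15.2 and 13.2. Its LPS + TBHQ libraries reached the lower end of the control range, and those of PIC + TBHQ did not. *Susd3* rose in 3 of 3 libraries in each stimulus (log2FC 1.18 ± 0.14, edgeR FDR 5.08e-11 within LPS). Within PIC its value was log2FC 1.45 ± 0.10, edgeR FDR 6.34e-12. *Gas6*, a ligand of the TAM receptors that clear dying cells, measured 10.8, 7.14 and 8.21 CPM with LPS, against 15.9, 12.98 and 15.97 in LPS + TBHQ. For PIC it was 8.50, 7.93 and 7.37, and 13.6, 9.91 and 14.4 when TBHQ preceded it, beside 19.7, 20.5 and 20.7 in control. Within each stimulus the TBHQ libraries were higher without overlap (log2FC 0.76 ± 0.20, edgeR FDR 2.06e-05 within LPS). Within PIC the value was log2FC 0.62 ± 0.18, edgeR FDR 3.50e-04.

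*Cldn11*, a claudin of tight junctions, rose within LPS (log2FC 0.49 ± 0.092, edgeR FDR 1.35e-07) and PIC (log2FC 0.46 ± 0.071, edgeR FDR 2.65e-07), in 3 of 3 libraries each. *Angptl4*, a secreted inhibitor of lipoprotein lipase, rose within PIC (log2FC 1.44 ± 0.20, edgeR FDR 1.11e-05) from 1.19, 1.10 and 0.743 to 3.02, 2.88 and 2.60 CPM. Its call within LPS (log2FC 0.63 ± 0.13, edgeR FDR 0.0219) was lost in DESeq2 (FDR 0.0559), without LPS library 1 (log2FC 0.52, FDR 0.115) and without LPS + TBHQ library 2 (log2FC 0.58, FDR 0.0790). *Cx3cr1*, the fractalkine receptor, had the deepest fall with PIC of the 241, 18.4-fold. It measured 29.5, 26.8 and 33.5 CPM in control, 5.27, 5.27 and 5.17 with LPS, against 4.45, 4.25 and 4.68 in LPS + TBHQ. For PIC it was 2.17, 1.48 and 1.22, and 2.96, 2.48 and 2.37 when TBHQ preceded it. The LPS + TBHQ libraries were thus a little below those of LPS (log2FC -0.26 ± 0.043, edgeR FDR 0.254), which did not pass, and the PIC + TBHQ libraries above those of PIC (log2FC 0.63 ± 0.25, edgeR FDR 0.0215). That call was lost without PIC library 2 (log2FC 0.57, FDR 0.0748) or 3 (log2FC 0.42, FDR 0.179), without PIC + TBHQ library 1 (log2FC 0.52, FDR 0.113), in a fit of the compared conditions only (FDR 0.0770) and in limma on log2(FPKM + 1) (FDR 0.0613). The gene overlaps *Csrnp1* and *Gorasp1* on its own strand, so its count is uncertain. Of 36 genes on a list of tissue-resident macrophages and microglia, 19 were tested and those among the 241 included *Cx3cr1*, *Trem2* and *Gas6*; the list as a whole had 4 higher and 7 lower within LPS and 5 higher and 6 lower within PIC, against 11.7% and 12.2% of all genes tested within LPS and 15.8% and 15.5% within PIC.

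Signalling genes included *Nlrp10*, an NLR family protein without leucine-rich repeats. It measured 15.6, 15.2 and 15.7 CPM in control, 4.37, 3.95 and 3.24 with LPS and 8.84, 8.92 and 8.44 when TBHQ preceded it. Under PIC the libraries gave 1.84, 2.71 and 2.97, against 5.74, 7.43 and 5.62 in PIC + TBHQ. Each TBHQ condition lay between its stimulus and control without overlap, with log2FC 1.15 ± 0.12, edgeR FDR 1.37e-07 within LPS and log2FC 1.23 ± 0.24, edgeR FDR 2.41e-07 within PIC. *Rasgrp3*, an exchange factor that activates Ras, rose within LPS (log2FC 0.32 ± 0.081, edgeR FDR 4.80e-06) and PIC (log2FC 0.47 ± 0.039, edgeR FDR 3.91e-09), in 3 of 3 libraries each. *Rgs18*, which speeds GTP hydrolysis by G-alpha proteins, overlapped with and without TBHQ in both stimuli (log2FC -0.18 ± 0.22, edgeR FDR 0.625 within LPS). Within PIC it gave log2FC 0.38 ± 0.23, edgeR FDR 0.294.

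Genes of lipid and xenobiotic metabolism included *Ephx1*, the microsomal epoxide hydrolase, which is also an Nrf2 target. It measured 6.37, 9.60 and 10.9 CPM in control, 5.20, 3.60 and 4.34 with LPS, against 6.98, 6.73 and 8.55 in LPS + TBHQ. Its PIC libraries gave 4.02, 4.06 and 4.08 and those of PIC + TBHQ 6.66, 6.76 and 6.27. The control libraries were spread widely, and their range overlapped with those of LPS + TBHQ and PIC + TBHQ. *Ephx1* rose in 3 of 3 libraries within LPS (log2FC 0.74 ± 0.19, edgeR FDR 0.00116) and PIC (log2FC 0.62 ± 0.032, edgeR FDR 0.00502). It was the only 1 among the 241 from a list of 28 antioxidant response genes, of which 26 were tested, 25 were higher and 1 lower within each stimulus, against 11.7% and 12.2% of all genes tested within LPS and 15.8% and 15.5% within PIC. *Acot1*, a cytosolic acyl-CoA thioesterase, rose within PIC (log2FC 1.16 ± 0.19, edgeR FDR 1.94e-04) from 1.38, 1.29 and 0.955 to 2.96, 2.34 and 3.08 CPM. Within LPS (log2FC 0.65 ± 0.16, edgeR FDR 0.0117) its call was lost without LPS library 1 (log2FC 0.59, FDR 0.0584) or 3 (log2FC 0.58, FDR 0.0506) and without LPS + TBHQ library 3 (log2FC 0.58, FDR 0.0586), and 18.8% of its 50-base stretches occur in other genes.

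Among transcription factors, *Mycn*, a MYC family member and at 131 FPKM in control among the 5 most abundant of the 241 per length, measured 459, 454 and 456 CPM in control. It measured 156, 159 and 178 with LPS and 246, 237 and 244 when TBHQ preceded it. Under PIC the libraries gave 126, 124 and 139, against 215, 200.2 and 209 in PIC + TBHQ. All 5 conditions were apart, and *Mycn* rose within LPS (log2FC 0.53 ± 0.063, edgeR FDR 1.57e-11) and PIC (log2FC 0.61 ± 0.059, edgeR FDR 5.65e-13), regaining 26.7% and 24.1%. *Cebpa*, a factor that directs myeloid differentiation, had 8.97, 8.11 and 9.79 CPM in control, 3.33, 4.09 and 4.28 with LPS and 7.76, 6.19 and 8.61 with LPS + TBHQ. It had 3.29, 2.06 and 3.02 with PIC and 4.69, 6.16 and 4.85 with PIC + TBHQ. *Cebpa* rose in 3 of 3 libraries of each stimulus (log2FC 0.92 ± 0.18, edgeR FDR 3.61e-05 within LPS). Its rise within PIC was log2FC 0.82 ± 0.23, edgeR FDR 4.43e-04. *Foxm1*, the factor that drives mitotic genes, named here for that role after its values were seen, rose within LPS (log2FC 0.28 ± 0.049, edgeR FDR 3.91e-04) and had log2FC 0.14 ± 0.081, edgeR FDR 0.0881 within PIC, which missed the threshold.

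The largest regained share in each stimulus was that of *Myh14* (ENSMUSG00000030739, chr7:44255227-44320267, minus strand), a heavy chain of non-muscle myosin. It measured 8.29, 7.59 and 6.84 CPM in control, 2.84, 2.70 and 3.86 with LPS and 8.36, 7.58 and 8.16 with LPS + TBHQ. With PIC it measured 2.50, 1.55 and 2.28 and with PIC + TBHQ 7.16, 8.44 and 8.34. Both TBHQ conditions overlapped with the control, and the rises were the largest of the 241 within LPS (log2FC 1.33 ± 0.16, edgeR FDR 6.04e-08) and PIC (log2FC 1.84 ± 0.21, edgeR FDR 1.03e-10). *Lgmn*, a lysosomal protease at 168 FPKM in control, rose within PIC (log2FC 0.21 ± 0.034, edgeR FDR 1.98e-05) in 3 of 3 libraries. Its call within LPS (log2FC 0.11 ± 0.020, edgeR FDR 0.0277) was lost without LPS library 1 (log2FC 0.094, FDR 0.105) or 3 (log2FC 0.10, FDR 0.0704) or LPS + TBHQ library 2 (log2FC 0.10, FDR 0.0736) or 3 (log2FC 0.10, FDR 0.0776), and in a fit of the compared conditions only (FDR 0.0578). *Apobec1*, a cytidine deaminase that edits apolipoprotein B RNA, was called lower within LPS (log2FC -0.12 ± 0.045, edgeR FDR 0.0388) with 2 of 3 libraries below all LPS libraries. Without LPS + TBHQ library 1 that value was -0.077 (FDR 0.260), and the call was also lost without LPS library 1 (log2FC -0.12, FDR 0.0922) or 2 (log2FC -0.11, FDR 0.116), without LPS + TBHQ library 3 (log2FC -0.13, FDR 0.0609), with total library size (log2FC -0.093, FDR 0.114), without a filter (FDR 0.131) and in a fit of the compared conditions only (FDR 0.0586). *mt-Co2*, a mitochondrially encoded subunit of cytochrome c oxidase, was the most abundant of the 241 at 231 FPKM, but its control libraries measured 296, 111 and 92.6 CPM, with replicate 1 far above the others. Without control library 1 its control mean was 102 CPM, it was below *Lgmn* in FPKM and it would not have been selected. The libraries of its other conditions lay between 58.4 and 90.8 CPM, and neither TBHQ comparison passed (log2FC -0.059 ± 0.18, edgeR FDR 0.898 within LPS). Within PIC it gave log2FC -0.21 ± 0.20, edgeR FDR 0.545.

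**Figure D3:**
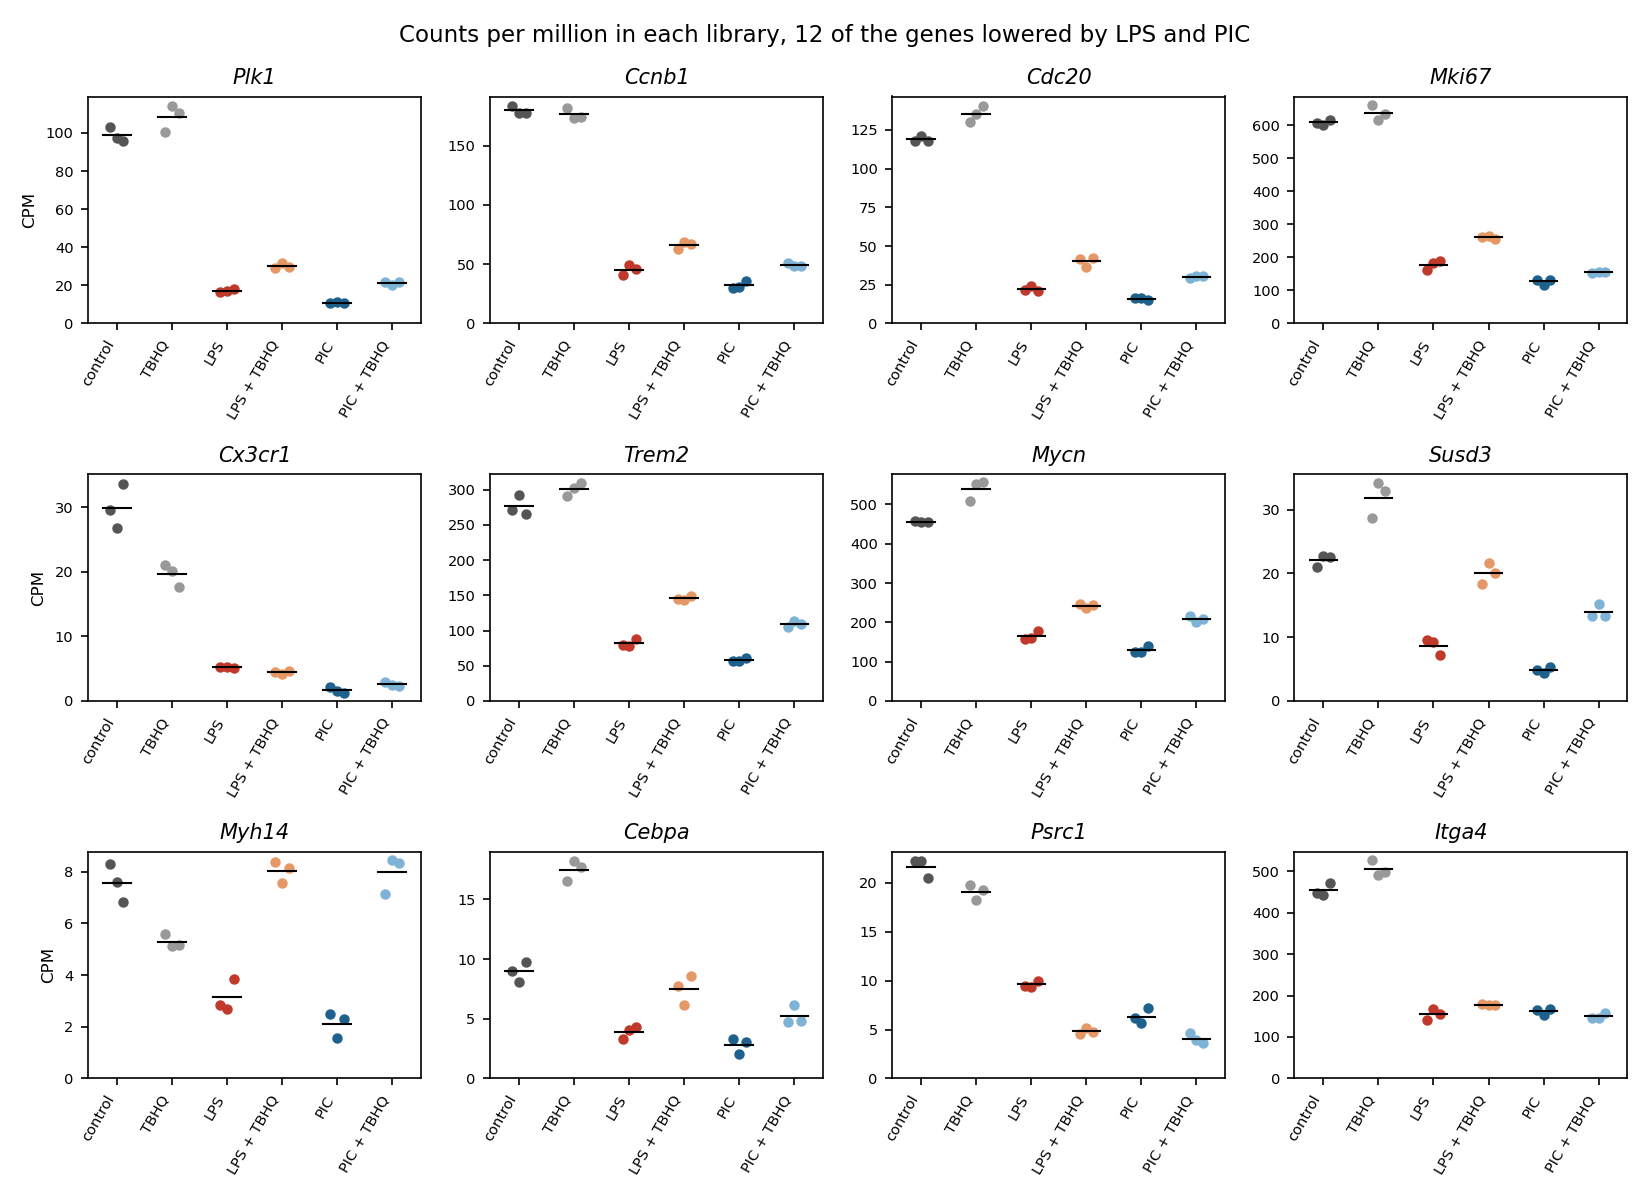
CPM in each of the 18 libraries (dots) and the mean of 3 (line) for 12 of the genes, by condition on the x axis, each panel on its own axis from 0. In most panels LPS + TBHQ and PIC + TBHQ lie a little above their stimulus and well below control. In both of these conditions *Myh14* overlaps with control, and *Psrc1* is lower than with the stimulus alone.

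On a list of 44 mitosis genes, 43 were among the 241, the exception being *Plk4*, and the list was chosen with earlier results of these data known. Of the 44, 41 were higher within LPS, and 29 were higher and 1 lower, *Pttg1*, within PIC. The median regained share of the 43 was 16.3% with LPS and 7.18% with PIC. Of 47 DNA replication genes, 21 were higher and 1 lower within LPS, and 11 higher and 6 lower within PIC, and of 45 DNA repair genes 13 and 4, and 10 and 4. Of all genes tested, 11.7% were higher and 12.2% lower within LPS, and 15.8% and 15.5% within PIC. Lists of FoxO (24), TGF-beta (27), lipid handling (30) and circadian clock (19) genes had 0 genes among the 241. The lipid handling list did not hold the 11 genes given the role of lipid and xenobiotic metabolism above. The list of chromatin regulators (40) had 1, *Hmgb2*.

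TBHQ alone for 4 h left the median gene of the 241 at 99.0% of control. Against control, 24 were higher, against 14.2% of all genes tested, and 40 lower, against 14.8%, with the control libraries shared with the selection. Without control library 3 the higher calls numbered 14. *Cebpa* rose most, from 8.97, 8.11 and 9.79 CPM in control to 16.6, 18.2 and 17.7 with TBHQ (log2FC 0.97 ± 0.087, edgeR FDR 3.52e-07), with no overlap. *Gas6* rose from 19.7, 20.5 and 20.7 to 30.2, 31.2 and 28.6 (log2FC 0.56 ± 0.041, edgeR FDR 7.71e-05) and *Susd3* from 21.0, 22.6 and 22.6 to 28.7, 34.1 and 32.8 (log2FC 0.53 ± 0.083, edgeR FDR 1.55e-05), each in 3 of 3 libraries. Smaller rises were found in *Mycn* (log2FC 0.24 ± 0.045, edgeR FDR 3.76e-05) and *Cdc20* (log2FC 0.19 ± 0.037, edgeR FDR 0.00348), again in 3 of 3 libraries. In the other direction, *Cx3cr1* fell from 29.5, 26.8 and 33.5 to 21.1, 20.1 and 17.6 CPM (log2FC -0.61 ± 0.12, edgeR FDR 1.25e-05) and *Rgs18* from 6.85, 8.24 and 5.77 to 3.10, 4.69 and 4.06 (log2FC -0.81 ± 0.23, edgeR FDR 0.00134), with no overlap in either. *Myh14*, which overlapped with control in LPS + TBHQ and PIC + TBHQ, fell from 8.29, 7.59 and 6.84 to 5.59, 5.14 and 5.16 CPM with TBHQ alone (log2FC -0.51 ± 0.090, edgeR FDR 0.00930). That call was lost without control library 1 (log2FC -0.44, FDR 0.0527). *mt-Co2* was lower with TBHQ alone (log2FC -1.35 ± 0.53, edgeR FDR 1.10e-05), and its log2FC was -0.65 (FDR 6.86e-05) without control library 1. Of the 134 division and chromosome genes 11 were higher and 8 lower, and of the 107 others 13 and 32.

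The test of whether the TBHQ effect differed between the stimuli called 0 of the 241 higher in PIC, against 0.825% of all genes, and 4 lower, against 1.01%. At an unadjusted p below 0.05, edgeR gave 10 higher and 36 lower, and DESeq2 and limma called 0 higher and 9 and 4 lower at their FDR. The lower calls became 2 without LPS library 1, LPS + TBHQ library 2, PIC library 3 or PIC + TBHQ library 1, and 9 without LPS library 2 or PIC library 2, and without PIC library 1 there was 1 higher call. With total library size 2 were higher and 2 lower, and the share of all calls that were higher moved from 45% to 76.1%, beside 29.1% in DESeq2 and 32.5% in limma. The 4 were *Mki67*, *Itga4*, *Knl1* and *Dek*. *Mki67* rose less within PIC than within LPS (difference log2FC -0.32 ± 0.090, edgeR FDR 0.00298), with the TBHQ libraries above those without it in each stimulus. The calls for *Knl1* and *Dek* were lost on leaving out certain libraries, with the values given in the closing section. *Itga4*, the integrin alpha chain that binds VCAM1, measured 142, 168 and 156 CPM with LPS, against 179.5, 176 and 178 in LPS + TBHQ. Its PIC libraries gave 164, 152 and 168 and those of PIC + TBHQ 146, 145 and 159, beside 447, 443 and 471 in control. It was thus higher after TBHQ within LPS and lower in 2 of 3 libraries within PIC (difference log2FC -0.35 ± 0.092, edgeR FDR 0.00176). Within LPS *Itga4* rose (log2FC 0.17 ± 0.069, edgeR FDR 0.00592), a call lost without LPS library 1 (log2FC 0.11, FDR 0.105), and within PIC it fell (log2FC -0.18 ± 0.060, edgeR FDR 0.00386), a call lost with total library size (log2FC -0.11, FDR 0.0799). *Dek*, a chromatin protein, had 96.0, 103 and 102 CPM with LPS and 114, 115 and 112 after TBHQ, and 77.1, 77.3 and 85.2 with PIC and 75.4, 79.5 and 80.4 after TBHQ, apart in the former and overlapping in the latter.

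PIC + TBHQ against LPS + TBHQ uses no library of the comparisons with control that chose the genes, although the minimum count was taken over all libraries. Of the 241, 164 were lower in PIC + TBHQ, against 8.39% of all genes tested, and 1, *Cldn11*, was higher, against 11.9%. With total library size these became 186 and 0, and the share of all calls that were higher moved from 58.5% to 25.6%. Of the 134 division and chromosome genes 119 were lower, and of the 43 mitosis genes 41. Of the 107 others 45 were lower. The lower level was not particular to the 241. Of 47 DNA replication genes, with only *Tk1* among the 241, 45 were lower and 0 higher. Their median log2FC was -0.51, beside -0.41 for the 241. Of 45 DNA repair genes, with 4 among the 241, 28 were lower and 2 higher. *Neil3*, a DNA glycosylase, measured 11.9, 12.7 and 11.5 CPM in LPS + TBHQ, against 5.18, 5.56 and 5.38 in PIC + TBHQ, without overlap (log2FC -1.08 ± 0.048, edgeR FDR 8.19e-09). For *Knl1* the libraries measured 32.7, 35.4 and 33.2 and 14.6, 16.2 and 17.7, again apart (log2FC -0.98 ± 0.088, edgeR FDR 2.58e-12). *Mki67* was lower by log2FC -0.67 ± 0.019, edgeR FDR 2.02e-14 and *Plk1* by log2FC -0.41 ± 0.050, edgeR FDR 1.20e-05, each in 3 of 3 libraries. *Cldn11* measured 64.2, 58.4 and 62.6 in LPS + TBHQ, against 68.9, 61.9 and 65.5 in PIC + TBHQ, which overlap (log2FC 0.17 ± 0.064, edgeR FDR 0.0382), and its call was lost without LPS + TBHQ library 2 (log2FC 0.13, FDR 0.207) or 3 (log2FC 0.18, FDR 0.0581) or PIC + TBHQ library 1 (log2FC 0.13, FDR 0.215) or 3 (log2FC 0.17, FDR 0.0968), and in total library size (log2FC 0.084, FDR 0.327), no filter (FDR 0.0547), DESeq2 (FDR 0.0661) and both limma alternatives (FDR 0.107 and 0.108). PIC against LPS compares values that chose the genes, so its calls only describe the selected genes. It had 167 lower, against 12.8% of all genes, and 2 higher, *Itga4* and *Cldn11*, against 14.9%. With total library size these became 193 and 0, with the higher share of all calls moving from 53.7% to 18.4%. The higher calls became 1 without LPS library 1 or PIC library 3.

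The promoters of the genes were read from RefSeq, build GRCm38.p6, as 250 bases before to 50 bases after each start. Of the 241 genes 193 matched, with 227 promoters, and 16770 of all protein-coding genes matched, with 20430 promoters. Letters were searched on both strands, and a match is a description only. CCAAT, the CCAAT box, occurred in 59.0% of the promoters of the 241, against 37.9% of eligible genes and 38.0% of all protein-coding genes. TTTGAA, the cell cycle homology region, occurred in 39.2%, against 12.2% and 15.4%, and both together in 29.5%, against 4.85% and 6.20%. In the promoters of the 134 division and chromosome genes the shares were 69.1% for CCAAT and 56.9% for TTTGAA, and in those of the 107 others 47.1% and 18.3%. TGACNNNGC, the core of the antioxidant response element, occurred in 15.4% of the promoters of the 241, against 14.3% of eligible genes and 13.1% of all. TTTNGCGC, an E2F site, occurred in 4.41%, against 2.61% and 1.79%, GGAAGTG, an ETS site, in 12.8%, against 15.7% and 12.2%, and CACGTG, an E-box, in 7.05%, against 10.6% and 8.02%. The median GC content was 59.3% for the 241, 61.3% for eligible genes and 57.0% for all.

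Promoters of 3 division genes and of *Trem2*, a gene with another role that regained part of its fall, are shown 5′ to 3′ on the strand of the gene, with CCAAT and TTTGAA in capitals. They lie at chr7:122159185-122159484 (*Plk1*, plus strand), chr4:118437294-118437593 (*Cdc20*, minus), chr13:100786437-100786736 (*Ccnb1*, minus) and chr17:48346151-48346450 (*Trem2*, plus) of GRCm38.p6. *Plk1* holds 1 CCAAT and 1 TTTGAA, *Cdc20* 2 and 1, *Ccnb1* 2 and 0, and *Trem2* 1 and 0.
Plk1: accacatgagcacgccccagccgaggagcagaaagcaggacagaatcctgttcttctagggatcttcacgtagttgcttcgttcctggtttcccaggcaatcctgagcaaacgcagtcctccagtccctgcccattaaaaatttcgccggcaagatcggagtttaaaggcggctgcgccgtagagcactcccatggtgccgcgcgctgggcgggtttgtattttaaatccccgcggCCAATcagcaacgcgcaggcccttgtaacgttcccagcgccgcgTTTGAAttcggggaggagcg
Cdc20: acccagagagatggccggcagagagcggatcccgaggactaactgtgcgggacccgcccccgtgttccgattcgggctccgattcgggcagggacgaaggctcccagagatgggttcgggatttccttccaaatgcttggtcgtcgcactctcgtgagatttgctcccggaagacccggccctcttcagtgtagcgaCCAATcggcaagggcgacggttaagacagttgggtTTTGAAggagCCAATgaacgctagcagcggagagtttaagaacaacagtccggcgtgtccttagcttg
Ccnb1: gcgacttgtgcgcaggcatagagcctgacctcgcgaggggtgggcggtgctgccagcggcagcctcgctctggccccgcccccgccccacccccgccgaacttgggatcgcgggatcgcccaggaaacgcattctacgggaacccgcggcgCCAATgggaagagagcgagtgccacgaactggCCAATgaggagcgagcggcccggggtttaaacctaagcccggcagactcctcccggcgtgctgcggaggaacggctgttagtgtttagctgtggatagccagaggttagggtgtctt
Trem2: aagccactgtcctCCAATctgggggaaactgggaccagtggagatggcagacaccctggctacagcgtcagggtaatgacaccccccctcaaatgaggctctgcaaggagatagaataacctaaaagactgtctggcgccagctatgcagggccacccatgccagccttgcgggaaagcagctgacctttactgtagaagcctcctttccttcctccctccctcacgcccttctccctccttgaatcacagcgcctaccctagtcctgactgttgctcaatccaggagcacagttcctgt

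Some counts may hold reads of near-identical copies. At least 10% of 50-base stretches occurred in another gene for 21 of the 241, and at least 50% for 5, namely *mt-Co2* (100%), *mt-Nd3* (98.0%), *Kpna2* (92.4%), *Gm7879* (76.4%) and *Depdc1a* (62.6%). Of the division genes described above, *Ccnb1* had 42.1% and *Cdc20* 11.4%, shared with pseudogenes, and *Hmgb2* 21.9%. For 30 of the 241 another gene with a sizeable count overlapped, 1 of them, *Cx3cr1*, on the same strand and the rest on the opposite strand, as *Elovl1* does with *Cdc20*. The genes lay on all chromosomes tabulated, from 1.46% of the eligible genes on chromosome 5 to 3.74% on chromosome 6, and 2 of the 12 mitochondrial ones. Their median length in the authors' table was 4217 bases, against 4603 for eligible genes, and their median control level was 9.12 FPKM, against 9.13.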

How the data were processed

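Gene expression was measured by RNA-seq in 18 libraries, 3 for each of 6 conditions. The authors deposited raw counts per gene, with no normalization, and the authors deposited FPKM, normalized by gene length and library total with a further scaling per library that their text does not name. The submitters' notes name HISAT2 2.0.5, StringTie 1.3.3b and featureCounts 1.5.0-p3. The genome is given as GRCm38/mm39, so positions are quoted as in the authors' table.

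Counts were tested in R 4.3.3 with edgeR 4.0.16 (filterByExpr, TMM, glmQLFit, glmQLFTest) in a fit over all 18 libraries, with 1 coefficient per condition and a common dispersion of 0.00192, and p-values were adjusted by Benjamini-Hochberg over 13691 genes at an FDR below 0.05. SE values come from the variances of log2 CPM (prior count 2) over 3 libraries per condition. CPM and FPKM of each library, their means and regained shares were computed in Python 3.11.15 with pandas 2.3.3 and numpy 2.4.6, and figures drawn with matplotlib 3.10.9. The code was tested on simulated data. Replicates of each condition differed by more than sampling noise. Depth was 14423390 to 18851626 counts per library.

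The alternatives were RLE size factors or total library size, no filter or only the 10451 genes averaging 50 counts or more, the conditions compared only, the replicate number as a block, DESeq2 1.42.0, limma 3.58.1 on log2(FPKM + 1) and log2(FPKM + 0.1), other thresholds, other settings of the selection, and leaving out each library. The members, lists and motifs were chosen with earlier results of these data known. The lists held mitosis, DNA replication, DNA repair, resident macrophage, antioxidant response, chromatin, FoxO, TGF-beta, lipid handling and circadian clock genes.

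Named genes are the 12 with the largest fall, the 10 most raised and up to 6 most lowered by TBHQ in both stimuli, up to 8 whose TBHQ effect differs most between stimuli, the 5 with the highest control FPKM, the 3 on each side of the selection limit, the 3 largest and 3 smallest log2FC in PIC + TBHQ against LPS + TBHQ, and the genes of the lists. A further list, from which *Rgs18* and *Rasgrp3* were named, and some genes are not reported here. Others, such as *Foxm1*, *Calhm2*, *2900026A02Rik*, *mt-Nd3*, *Kpna2* and *Gm7879*, were chosen after their values were seen.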

Additional observations from a re-analysis of the deposited data

Results flagged for a closer look

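For 4 of the 241 genes the TBHQ effect differed between the stimuli by a test of the difference itself, in edgeR's quasi-likelihood fit at an FDR below 0.05. The 4 lower calls are 1.66% of the 241, near the 1.01% of all genes tested, and 0 were higher, against 0.825%. The count therefore says little about the 241 as a set, and the 4 genes are described singly. Each was less raised, or lower, after TBHQ within PIC than within LPS. *Mki67* differed by log2FC -0.32 ± 0.090, edgeR FDR 0.00298, and over 21 alternatives by -0.38 to -0.26 with an FDR of 1.39e-06 to 0.0414. *Itga4* differed by log2FC -0.35 ± 0.092, edgeR FDR 0.00176, and over 21 alternatives by -0.42 to -0.29 with an FDR of 1.29e-07 to 0.0307. *Knl1* differed by log2FC -0.45 ± 0.15, edgeR FDR 0.0312, over the alternatives by -0.55 to -0.35 with an FDR of 0.00395 to 0.128, and was called in 10 of 21. Its call was lost without LPS library 1 (log2FC -0.41, FDR 0.0837) or 3 (log2FC -0.45, FDR 0.0537), LPS + TBHQ library 2 (log2FC -0.41, FDR 0.0957), PIC library 1 (log2FC -0.44, FDR 0.0639) or 3 (log2FC -0.38, FDR 0.107), or PIC + TBHQ library 1 (log2FC -0.38, FDR 0.128) or 2 (log2FC -0.45, FDR 0.0574), and with total library size (FDR 0.0566), the conditions compared only (FDR 0.0696) and limma with 1 (FDR 0.074) or 0.1 (FDR 0.111) added. *Dek* differed by log2FC -0.25 ± 0.063, edgeR FDR 0.0304, over the alternatives by -0.29 to -0.21 with an FDR of 0.006 to 0.112, and was called in 15 of 21. Its call was lost with total library size (log2FC -0.21, FDR 0.0859), and without LPS library 1 (log2FC -0.23, FDR 0.0874), LPS + TBHQ library 1 (log2FC -0.25, FDR 0.0653) or 2 (log2FC -0.25, FDR 0.0854), PIC library 3 (log2FC -0.22, FDR 0.0764) or PIC + TBHQ library 1 (log2FC -0.23, FDR 0.112).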

How the results depend on the processing

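The selection gave 241 genes. It gave 782 with the looser limit on the ratio to control and 70 with the stricter limit, by the construction of the limit. With TMM-scaled CPM it gave 195, and with RLE-scaled CPM or the deposited FPKM 191, all of them among the 241. The other settings gave 166 to 273, with 227 to 248 on leaving out 1 library. The median share regained within LPS, 16.9%, was 15.8 to 18.3% and that within PIC, 9.44%, was 9.06 to 10.1% when genes were chosen without a replicate and read in it, and 8.08% within PIC for the 70 genes.

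Of the 241, edgeR called 157 higher and 3 lower with TBHQ within LPS, and 138 higher and 7 lower within PIC. Leaving out 1 library gave 134 to 154 and 2 to 3 within LPS, and 109 to 136 and 4 to 8 within PIC. Total library size left 4 lower within PIC. For the difference between stimuli, 0 higher and 4 lower with edgeR and TMM, leaving out 1 library gave 0 to 1 and 2 to 9. Total library size gave 2 higher and 2 lower, no filter 2 and 10, a mean of at least 50 counts 7 lower, DESeq2 9 lower, and the compared conditions only 1 higher. The cause was not tested.

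Against control, TBHQ alone had 24 called higher and 40 lower, with 14 to 20 and 30 to 36 on leaving out 1 library, and 13 higher in limma with 0.1 added. In PIC + TBHQ against LPS + TBHQ, 1 was higher and 164 lower, with 0 to 1 and 147 to 156 on leaving out 1 library, and 0 higher with total library size, DESeq2 and both limma settings. In PIC against LPS, 2 were higher and 167 lower, with 1 to 2 and 143 to 163 on leaving out 1 library, and 0 higher with total library size. The cause was not tested.

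An FDR below 0.01 left 1 lower within LPS, 2 lower for the difference between stimuli, 13 higher with TBHQ alone, 0 higher in PIC + TBHQ against LPS + TBHQ and 1 higher in PIC against LPS. A log2FC above 0.5 in size left 61 higher within LPS, 63 higher and 1 lower within PIC, 0 for the difference between stimuli, 3 higher and 16 lower with TBHQ alone, 0 higher and 85 lower in PIC + TBHQ against LPS + TBHQ, and 0 higher and 71 lower in PIC against LPS. These limits are stricter by construction.

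With the replicate number as a block, 157 were higher and 3 lower within LPS, 139 and 7 within PIC, 1 and 5 for the difference between stimuli, 26 and 40 with TBHQ alone, 1 and 164 in PIC + TBHQ against LPS + TBHQ, and 2 and 166 in PIC against LPS. Deviations of libraries sharing a number correlated at -0.0713 to 0.142 over all conditions, with 2 of 45 pairs above 0.1, and a library correlated best with its own number in 42 of 90 cases, so the number was not taken as a pairing.

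Of 70 named genes called within LPS, 29 kept the call in all alternatives, as did 22 of 57 within PIC. No named call reversed. Depth limits the genes with few counts, the lowest total being 915 over 18 libraries.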
